A study of Mus musculus with 6 samples.

Results

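The 8 genes described here encode the single-pass membrane proteins that work beside the Frizzled receptors in Wnt signalling, together with the Kremen proteins that regulate them. They are the LDL receptor-related proteins Lrp5, Lrp6 and Lrp4, the receptor tyrosine kinase-like proteins Ror1, Ror2 and Ryk, and Kremen1 and Kremen2. They were taken by gene symbol, and each of the 8 was found once among the 17582 genes of the deposited expression table. Messenger RNA was measured by sequencing in first mandibular molars of C57BL/6 mice at postnatal day 4, in 3 knockout and 3 control libraries. Knockout mice had the genotype K14-Cre; Wnt10aflox/flox, in which the keratin 14 promoter drives Cre recombinase in epithelium. Control mice were Wnt10aflox/flox littermates without Cre. The floxed alleles are thus common to all 6 libraries, and Cre itself is present in the knockout libraries only, so that effects of Cre and of the deletion cannot be told apart. The labels leave unsaid whether a library came from 1 animal or several, and the p-values reflect only how much these libraries vary. The comparison asks whether receptor transcripts of the whole molar differ when the epithelial Wnt10a gene is targeted.

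In the canonical pathway a Wnt ligand joins a Frizzled receptor to LRP5 or LRP6, whose cytoplasmic tail is then phosphorylated and holds the Axin complex at the membrane, so that beta-catenin accumulates. Dickkopf proteins and sclerostin bind LRP5 and LRP6 and block this step, and Kremen proteins bind Dickkopf and help to remove LRP6 from the cell surface. ROR and RYK proteins receive Wnt5a-type signals that act on cell polarity and movement rather than mainly through beta-catenin. LRP4 carries agrin and sclerostin-family ligands, and in teeth it is known as a partner of Sostdc1, a secreted antagonist that limits tooth number in mice.

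Levels are in FPKM (fragments per kilobase of transcript, relative to the mapped reads of the library). Fold changes are differences of mean log2(FPKM + 1), a scale that makes changes of low genes look smaller. The limma test covered the 11934 genes that reached 1 FPKM in 3 or more libraries. Depth was estimated at 17950000 to 18570000 reads per library from the smallest steps in the values, and 11774 to 12025 genes per library reached 1 FPKM. Wnt10a was at 19.39, 19.94 and 18.07 FPKM in the knockout libraries and at 33.61, 36.59 and 31.68 FPKM in the controls (limma adjusted p = 0.00609). All 14 marker genes of dental epithelium and odontoblasts were above the filter, Amelx, Krt14 and Dspp among them. Markers of neighbouring tissue differed between libraries. The summed FPKM of 8 oral mucosa markers was 205 in control 1 and between 20.4 and 33.5 in the other libraries. The sum of 8 skeletal muscle markers was between 49.6 and 72.2 in knockout 3, control 1 and control 3 and between 7.17 and 14.2 in the other libraries. The sum of 6 osteoclast markers was between 53.7 and 70.9 in the knockouts and between 76.3 and 78.8 in the controls. Only 3 of these 6, Acp5, Ctsk and Mmp9, passed the filter, with a median fold change of -0.453. All 3 had an unadjusted limma p under 0.05, beside 5.70% of all tested genes (lowest limma adjusted p 0.515). Their groups did not overlap, beside 10.1% of all tested genes. The filter was passed by 5 of 8 oral mucosa and 5 of 8 skeletal muscle markers. No marker of these 3 lists was at 0 in every library. Of 6 osteoblast and bone markers 5 had a fold change below 0 and 1 above. An unadjusted limma p under 0.05 was found for 3 of 6, Spp1, Ibsp and Runx2, beside 5.70% of all tested genes (lowest limma adjusted p 0.144). All 6 odontoblast and papilla markers lay below 0, with a median of -0.175, beside 51.8% of all tested genes below 0. The highest of them, Msx2, was practically unchanged at -4.0e-06, with means of 84.03 FPKM in knockout and 84.01 FPKM in control. The part of these tissues in the values below was not tested, apart from the omission of single libraries.

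All members other than Kremen2 passed the filter, and limma called 0 of these 7 at an adjusted p of 0.05. It called 1 gene in all, Wnt10a, or 0.00838% of all tested genes. The q-values of the authors' deposited table, given further on, differ from this for 4 members. At an unadjusted p under 0.05 the count was 0 of 7 with limma, beside 5.70% of all tested genes, and 0 of 7 with limma-voom on rebuilt reads, beside 5.52%. The knockout and control values overlapped for each of the 8 members. Groups that did not overlap made up 10.1% of all tested genes. Of the 7 tested members 5 had a fold change below 0 and 2 above, with a median of -0.079, beside a median of -0.0050 and 51.8% below 0 over all tested genes. The 95% intervals of the 7 fold changes together reached from -0.32 to 0.29.

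**Figure D1:**
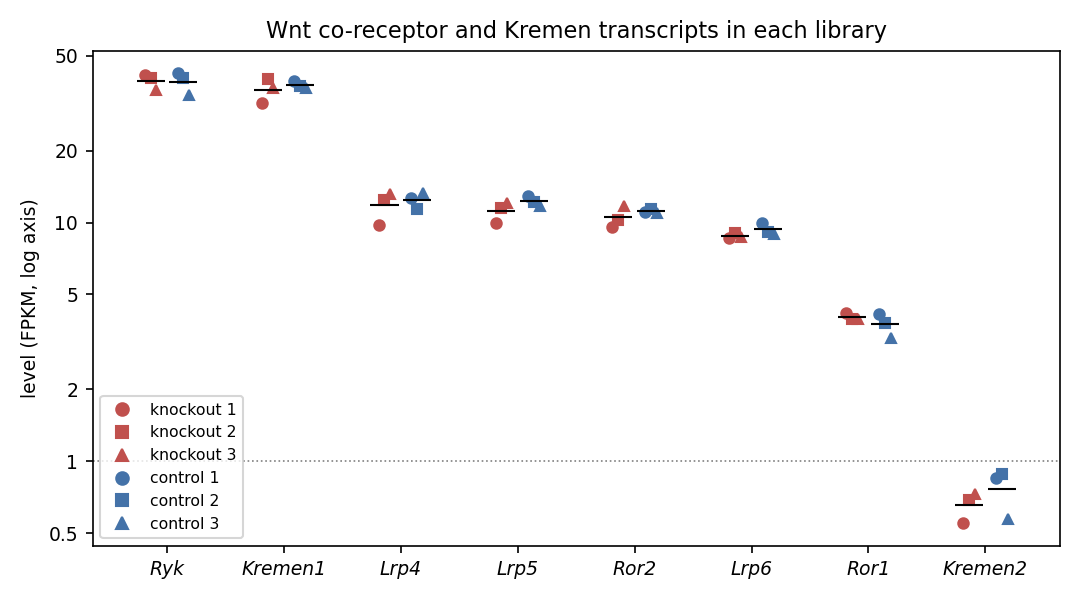
Level of each member in FPKM (log axis) in the 3 knockout and 3 control libraries, with a bar at each group mean and a dotted line at 1 FPKM. Ryk and Kremen1 lie between 31.88 and 42.29 FPKM, Lrp4, Lrp5, Ror2 and Lrp6 between 8.59 and 13.32 FPKM, Ror1 between 3.30 and 4.18 FPKM, and Kremen2 under 1 FPKM in every library.

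The members fell into 4 ranges of level. Ryk had the highest mean over the 6 libraries, 39.2 FPKM, and was above 88.2% of tested genes. Kremen1 followed at 36.9 FPKM, and the 2 genes were not separated by their spread, since Ryk was the higher of them in 4 of 6 libraries. Kremen1 was 3.04 times the mean of the next gene, Lrp4, and their ranges did not overlap. Lrp4 at 12.2 FPKM and Lrp5 at 11.7 FPKM were not separated, Lrp4 being the higher in 3 of 6 libraries. Lrp5 was above Ror2 (10.8 FPKM) and Ror2 above Lrp6 (9.09 FPKM) in 6 of 6 libraries, although the ranges of these neighbours overlapped. Ror1 at 3.88 FPKM and Kremen2 at 0.712 FPKM each lay below the whole range of the gene before it. These levels are per transcript length and describe the whole molar, in which epithelial and mesenchymal transcripts are mixed, so fewer cells of a type and less RNA per cell cannot be told apart.

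Paralogs can lose reads to each other where their transcripts are identical. Of all windows of 50 bases in the annotated transcripts of the 8 genes (GENCODE M21), 0 were shared between members; the read length is not stated in the labels, and 50 bases was chosen here. Windows shared with transcripts of other genes, read in the sense direction, made up 0.722% of those of Lrp6, 0.675% of those of Kremen2, 0.051% of those of Lrp5 and 0.019% of those of Lrp4, and 0 of those of Ror1, Ror2, Ryk and Kremen1. The coding sequences of Lrp5 and Lrp6 had 67.7% identical bases over 4783 aligned positions, those of Ror1 and Ror2 64.5% over 2763, and those of Kremen1 and Kremen2 57.7% over 1317. The longest identical runs of the coding sequences are shown because they give the extent of the letters that paralogs share. Capitals in the second line mark the 22 bases of the first line, which recur in Lrp4, so that the run common to Lrp5 and Lrp6 was found in all 3 LRP genes.
Lrp5 and Lrp6: tcatgtactggacagactgggg
Lrp4 and Lrp6: gggtTCATGTACTGGACAGACTGGGG
Ror1 and Ror2: atcacagctgccttcaccatgat
Kremen1 and Kremen2: tatgcctgcttctgtgg
The first run covers coding bases 1412 to 1433 of Lrp5 and 452 to 473 of Lrp6, and the Lrp4 run covers coding bases 3535 to 3560, counted from the A of the start codon. The ROR run covers coding bases 604 to 626 of Ror1 and the Kremen run coding bases 493 to 509 of Kremen1.

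Lrp5 and Lrp6 encode the co-receptors of the canonical pathway. Lrp5 (Entrez 16973) lies on the minus strand of chromosome 19, from 3584828 to 3686564 in GRCm38, the assembly also called mm10, and has 23 coding exons. Knockouts 1, 2 and 3 held 9.92, 11.5 and 12.12 FPKM of its transcript, and controls 1, 2 and 3 held 12.96, 12.21 and 11.78 FPKM. Knockouts 1 and 2 lay below every control, while knockout 3 lay among the controls, so the groups overlapped. The means were 11.2 ± 1.13 and 12.3 ± 0.597 FPKM (SD, n = 3 each), a log2 fold change of -0.13 (SE 0.087, 95% interval -0.32 to 0.060, limma adjusted p = 0.891). This was the smallest unadjusted p of the members, 0.158 in limma, and 17.7% of tested genes had a smaller one.

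Lrp6 (Entrez 16974) lies on the minus strand of chromosome 6, from 134446476 to 134566965, and also has 23 coding exons. It stood at 8.59, 9.09 and 8.73 FPKM in the knockouts and at 9.97, 9.15 and 8.99 FPKM in the controls. Knockouts 1 and 3 were below all controls and knockout 2 lay between controls 2 and 3. The means of 8.80 ± 0.258 and 9.37 ± 0.526 FPKM correspond to a log2 fold change of -0.080 (SE 0.077, 95% interval -0.25 to 0.090, limma adjusted p = 0.909). Control 1 had the highest value of Lrp6 and also the highest sum of oral mucosa markers. Lrp6 lay 0.12 above its own mean there on the log2(FPKM + 1) scale. The 499 tested genes nearest to it in transcript length lay above theirs by a median of 0.11. A part of either in the Lrp6 value was not tested. Without control 1 the fold change of Lrp6 was -0.039 and that of Lrp5 was -0.098. Together the 2 co-receptors summed to 18.5, 20.6 and 20.9 FPKM in the knockouts and 22.9, 21.4 and 20.8 FPKM in the controls. Knockout 3 and control 3 are the libraries in which these sums meet.

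Lrp4 (Entrez 228357; chromosome 2, 91457511 to 91513779, plus strand) encodes the relative that binds agrin and sclerostin-type antagonists. Its level was 9.81 FPKM in knockout 1 and 12.44 and 13.23 FPKM in knockouts 2 and 3, against 12.73, 11.38 and 13.32 FPKM in the controls. Only knockout 1 lay outside the range of the controls. In log2 terms the change was -0.079 (SE 0.107, 95% interval -0.31 to 0.16, limma adjusted p = 0.937), and it turned to 0.040 without knockout 1. Of the tested members Lrp4 varied most over the 6 libraries, with an SD of 0.155 on the log2(FPKM + 1) scale.

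The ROR receptors differed in level from each other, Ror2 exceeding Ror1 in 6 of 6 libraries. Ror2 (Entrez 26564; chromosome 13, 53109312 to 53286124, minus strand) encodes a Wnt5a receptor. It was at 9.59, 10.22 and 11.79 FPKM in the knockouts and at 11.09, 11.39 and 10.98 FPKM in the controls. The knockouts fell on both sides of the narrow control range, 2 below it and 1 above. On the log2 scale the knockout differed by -0.080 (SE 0.086, 95% interval -0.27 to 0.11, limma adjusted p = 0.921). Without knockout 1 it was -0.021.

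Ror1 (Entrez 26563; chromosome 4, 100095791 to 100444765, plus strand) was at 4.18, 3.93 and 3.95 FPKM in the knockouts and at 4.16, 3.78 and 3.30 FPKM in the controls. It was one of the 2 tested members with a higher knockout mean, and the knockout values lay within or just above the upper part of the control range. Its log2 fold change was 0.084 (SE 0.094, 95% interval -0.12 to 0.29, limma adjusted p = 0.922). Without control 3, the lowest library, it was 0.015, and with the length trend described below removed it was 0.14 (limma adjusted p = 0.875).

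Ryk (Entrez 20187; chromosome 9, 102834917 to 102908305, plus strand) encodes a Wnt receptor with a kinase-like domain that lacks normal catalytic activity. It was at 41.74, 40.5 and 35.89 FPKM in the knockouts and at 42.29, 40.23 and 34.29 FPKM in the controls. In each genotype the library numbered 3 was the lowest, and the knockout values lay wholly within the control range. The means of 39.4 ± 3.08 and 38.9 ± 4.15 FPKM differed by 0.018 on the log2 scale (SE 0.090, 95% interval -0.18 to 0.22, limma adjusted p = 0.986), and the sign changed in 3 of the 6 omissions of a library.

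Kremen1 and Kremen2, the receptors of Dickkopf proteins, stood far apart in the order of levels, with means of 36.9 and 0.712 FPKM over the 6 libraries. Kremen1 (Entrez 84035; chromosome 11, 5191552 to 5261558, minus strand) was at 31.88, 39.83 and 36.54 FPKM in the knockouts and at 39.3, 37.4 and 36.54 FPKM in the controls. Knockout 1 was the lowest and knockout 2 the highest of the 6 libraries. Its change between groups was -0.068 in log2 (SE 0.084, 95% interval -0.25 to 0.12, limma adjusted p = 0.927), and it turned to 0.016 without knockout 1.

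Kremen2 (Entrez 73016; chromosome 17, 23741197 to 23745833, minus strand) was under 1 FPKM in every library and was therefore not part of the test across genes. It was at 0.55, 0.69 and 0.73 FPKM in the knockouts and at 0.85, 0.88 and 0.57 FPKM in the controls, and the groups overlapped through control 3. At the estimated depths this is 21 to 33 reads in a library. The mean difference of -0.11 FPKM gave p = 0.4 in a two-sided exact permutation test, in which 3 against 3 libraries cannot go below 0.1. The difference was -0.053 FPKM without control 2, -0.057 FPKM without knockout 1, -0.068 FPKM without control 1 and -0.21 FPKM without control 3. An annotated gene on the opposite strand, 9530082P21Rik, overlaps 200 bases of its exons. The strand setting of the counting is not stated in the labels, so reads of the overlap cannot be assigned. No other member has an exon that overlaps an exon of another annotated gene.

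Promoters of 4 members, Ror1, Ror2, Ryk and Kremen2, were matched in RefSeq (GRCm38.p6), each covering 250 bases before to 50 bases after the start of the gene. Those of Ryk and Kremen2 are shown as the highest and the lowest gene in the order of levels, with each CG dinucleotide in capitals. The Ryk window is chr9:102834670-102834969 on the plus strand and the Kremen2 window is chr17:23745780-23746079 on the minus strand.
Ryk: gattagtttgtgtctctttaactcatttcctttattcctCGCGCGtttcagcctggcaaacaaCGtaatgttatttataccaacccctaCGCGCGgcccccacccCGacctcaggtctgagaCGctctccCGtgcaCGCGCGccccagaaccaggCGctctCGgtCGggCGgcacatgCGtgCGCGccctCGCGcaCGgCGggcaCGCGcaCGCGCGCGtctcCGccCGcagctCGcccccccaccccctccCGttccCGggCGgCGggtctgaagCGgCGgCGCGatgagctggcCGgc
Kremen2: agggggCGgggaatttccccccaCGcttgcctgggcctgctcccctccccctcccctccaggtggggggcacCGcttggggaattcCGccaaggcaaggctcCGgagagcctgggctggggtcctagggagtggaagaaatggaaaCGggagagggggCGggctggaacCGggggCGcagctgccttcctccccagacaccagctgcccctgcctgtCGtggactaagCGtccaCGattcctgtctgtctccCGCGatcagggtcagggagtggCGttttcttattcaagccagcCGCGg
The Ryk window holds 42 CG dinucleotides, more than 97.0% of 32851 promoter windows of the same length, and the Kremen2 window holds 17. The windows of Ror2 and Ror1 hold 32 and 10, beside a median of 7 over all windows. The TCF/LEF-type motifs CTTTGAA and CTTTGAT, searched on both strands, were found in 0 of these 4 windows, while 8.65% of all windows hold at least 1 of them. The count describes these letters in these windows only.

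**Figure D2:**
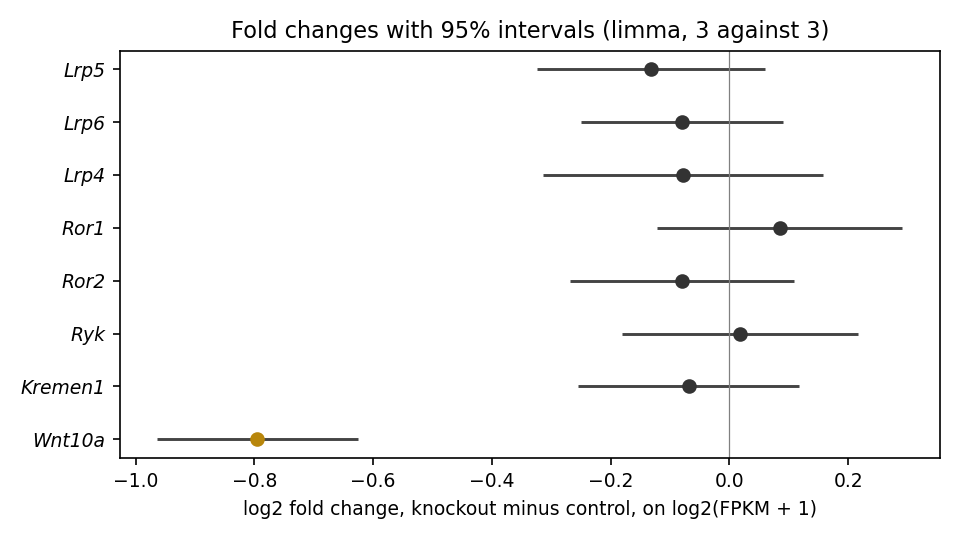
Log2 fold change of the 7 tested members and of Wnt10a (knockout minus control, on log2(FPKM + 1)), with 95% intervals from limma over 3 against 3 libraries. Each member's interval spans 0, and that of Wnt10a lies between -0.96 and -0.63.

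The balance between related receptors was compared within libraries, where the scaling of a library cancels. The length trend described below does not cancel, because the paired transcripts differ in length. The ratio of Lrp6 to Lrp5 was 0.866, 0.790 and 0.720 in knockouts 1, 2 and 3 and 0.769, 0.749 and 0.763 in the controls. The controls lay within the range of the knockouts. Each ratio was below 1, Lrp5 having the higher level per length in 6 of 6 libraries. The ratio of Ror2 to Ror1 was 2.29, 2.60 and 2.98 in the knockouts and 2.67, 3.01 and 3.33 in the controls. Knockouts 1 and 2 lay below all controls, and knockout 3 lay between controls 1 and 2. The log2 ratio was 1.38 ± 0.190 in the knockouts and 1.58 ± 0.160 in the controls, a difference of -0.20 (two-sided exact permutation p = 0.2, or 0.6 adjusted over 3 pairs, where the design cannot go below 0.1 before adjustment). The ratio of Kremen1 to Kremen2 was between 50.1 and 58.0 in the knockouts and between 42.5 and 64.1 in the controls. The log2 differences of the Lrp6 to Lrp5 and Kremen1 to Kremen2 ratios were 0.055 (exact permutation p = 0.7) and 0.14 (exact permutation p = 0.6), both adjusted to 0.7. Without knockout 1 the Lrp6 to Lrp5 difference was -0.011, and without knockout 3 it was 0.12. The Ror2 to Ror1 difference was -0.10 without knockout 1, -0.12 without control 3 and -0.29 without knockout 3. The Kremen1 to Kremen2 difference was 0.018 without control 2, 0.079 without control 1, 0.21 without knockout 3 and 0.31 without control 3. With the length trend removed the difference was 0.078 for Lrp6 to Lrp5 (exact permutation p = 0.5) and -0.19 for Ror2 to Ror1 (exact permutation p = 0.3). It was not computed for Kremen1 to Kremen2, since Kremen2 was below the filter.

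**Figure D3:**
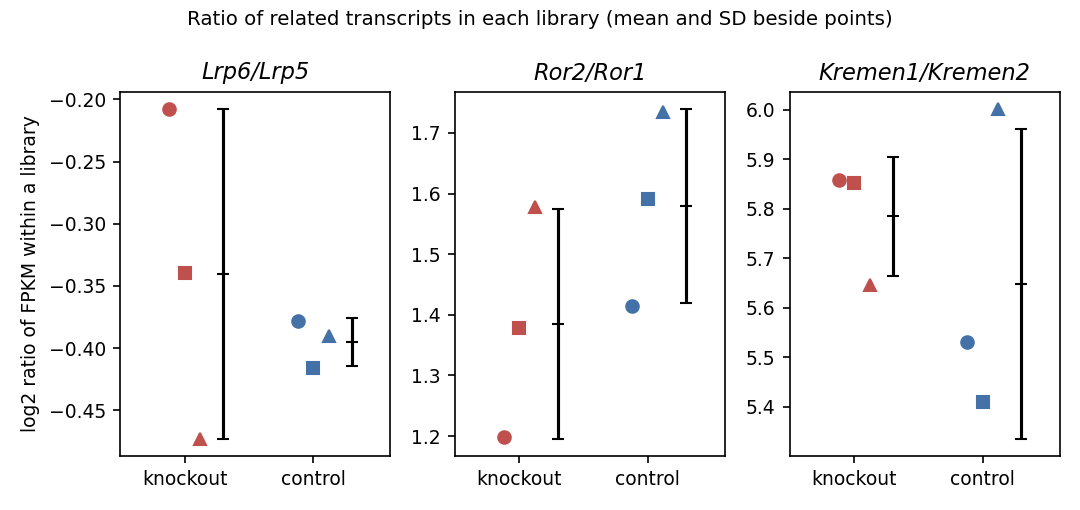
Log2 ratio of FPKM within a library for Lrp6/Lrp5, Ror2/Ror1 and Kremen1/Kremen2, by genotype, with the mean and SD of 3 libraries beside the points; the axes differ and do not start at 0. Knockout and control points overlap in each panel, and the Ror2/Ror1 panel shows the knockout mean of 1.38 below the control mean of 1.58.

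A single library held the lowest value of most members. Knockout 1 was the lowest of the 6 libraries for 6 of 8 members, Lrp5, Lrp6, Lrp4, Ror2, Kremen1 and Kremen2, and the lowest for 21.5% of all tested genes. Ror1 and Ryk behaved otherwise, with their lowest value in control 3, which was the lowest library for 31.9% of tested genes. The values of knockout 1 moved with transcript length. Over 796 tested genes with transcripts up to 1000 bases the median deviation of knockout 1 from the gene's mean was 0.17 on the log2(FPKM + 1) scale, and over 1343 genes above 6000 bases it was -0.086. Control 1 went the other way, with -0.080 and 0.10. Most members have long transcripts, from 3267 bases for Ryk to 9368 bases for Lrp6, and 2117 for Kremen2.

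Members were therefore set beside the tested genes nearest to them in transcript length. In knockout 1 Lrp6 deviated by -0.072 and its 499 neighbours in length by a median of -0.098. Lrp4 deviated by -0.28, Lrp5 by -0.22, Kremen1 by -0.20 and Ror2 by -0.16, where the medians of their neighbours were -0.095, -0.057, -0.049 and -0.032. Ror1 and Ryk deviated by 0.088 and 0.094, against -0.062 and -0.0098. Kremen2, below the filter, deviated by -0.14 in knockout 1, where the median of its 500 neighbours was 0.047, on the other side of 0. After removal of the length trend from each library the log2 fold changes were -0.0040 for Lrp6, -0.0014 for Lrp4, -0.030 for Kremen1, -0.054 for Ror2, -0.082 for Lrp5 and 0.031 for Ryk, and the median of the 7 was -0.0040. No member passed the threshold in that fit either (lowest limma adjusted p 0.875).

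**Figure D4:**
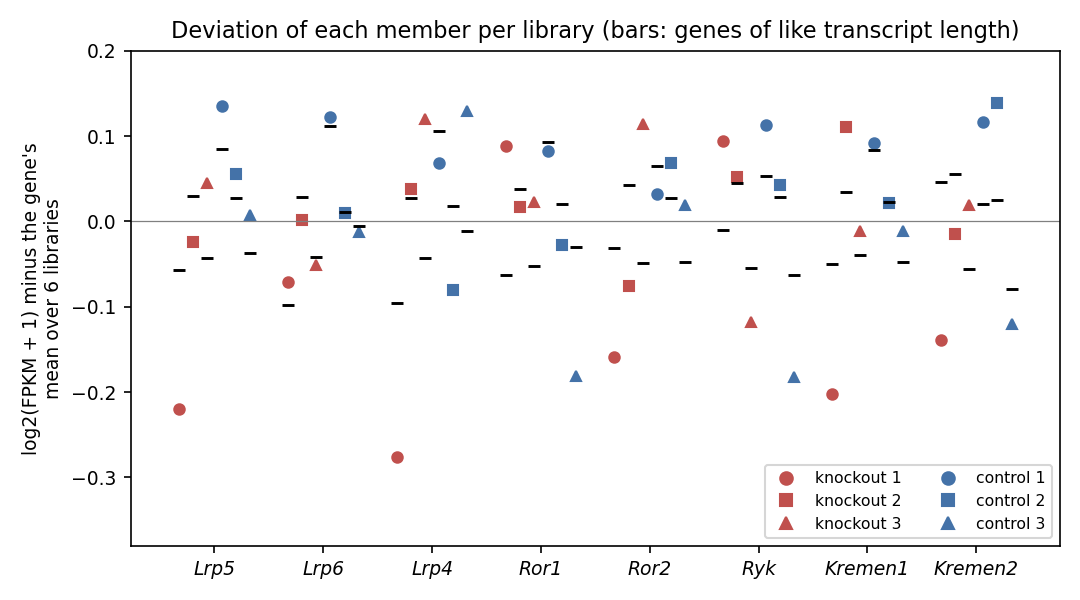
Deviation of each member from its own mean over 6 libraries, on log2(FPKM + 1), in every library; black bars mark the median of the tested genes nearest in transcript length in the same library. Knockout 1 (red circles) is lowest for 6 of 8 members, from -0.28 for Lrp4 to -0.072 for Lrp6.

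The authors' deposited table gives 4 of the 8 members a q-value under 0.05, each lower in the knockout. They are Lrp5 (log2 ratio -0.14, q = 0.000641), Kremen1 (-0.065, q = 0.00698), Lrp6 (-0.089, q = 0.0119) and Lrp4 (-0.077, q = 0.0216). The same authors' deposited table has 24.4% of its 16662 genes under that q, and 14.1% under it and lower in the knockout. The fold changes of these 4 genes are close to those from limma, and their knockout and control libraries overlap. Neither labels nor header name the test behind those q-values. In the authors' deposited table Ror2 (-0.081, q = 0.110), Ror1 (0.090, q = 0.198), Kremen2 (-0.22, q = 0.362) and Ryk (0.015, q = 0.497) did not reach it.

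The genes that act with these receptors also gave no call. Of 22 tested partners in the LRP5 and LRP6 complex, Frizzled receptors, casein kinases, glycogen synthase kinases and scaffold proteins, 0 passed in either direction (limma), 15 lay below 0 and the median was -0.027. The most abundant were Csnk1g2, a membrane-bound casein kinase (51.8 ± 0.822 against 52.5 ± 0.602 FPKM in knockout and control), Gsk3a (48.9 ± 2.43 against 46.3 ± 2.51 FPKM) and Fzd6 (33.1 ± 1.62 against 32.2 ± 1.78 FPKM). At an unadjusted p under 0.05 there was 1 of 22 genes, beside 5.70% of all tested genes. It was Gsk3b, a kinase of the complex, named after its values were seen, with a log2 fold change of -0.16 (limma adjusted p = 0.869). Gsk3b was at 19.14, 19.85 and 19.56 FPKM in the knockouts and at 22.05, 21.01 and 22.52 FPKM in the controls. The groups of 3 of the 22 genes did not overlap, beside 10.1% of all tested genes, and the other 2, also named after their values were seen, were Csnk1g1 and Ccny. Csnk1g1, a membrane-bound casein kinase, was lower in the knockouts, at 6.06, 6.38 and 6.48 FPKM against 6.93, 6.69 and 7.35 FPKM. Ccny, a membrane-bound cyclin that acts in LRP6 phosphorylation, was higher, at 25.65, 26.33 and 25.72 FPKM against 24.81, 22.51 and 25.28 FPKM.

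Among 9 tested secreted ligands of LRP, Kremen and LGR-type receptors, 0 passed (limma) and 1 of 9, Rspo4, had an unadjusted p under 0.05, beside 5.70% of all tested genes. The list had a median of -0.040, with 5 members below 0. Rspo4, an R-spondin that strengthens Wnt signals by sparing Frizzled and LRP6 from removal, was at 21.38, 31.78 and 32.32 FPKM in the knockouts and at 36.28, 36.85 and 39.62 FPKM in the controls. The groups did not overlap, which held for 1 of the 9 genes, beside 10.1% of all tested genes. Knockout 1 stood well below the other knockouts. The log2 fold change of Rspo4 was -0.41 (SE 0.131, 95% interval -0.70 to -0.12, limma adjusted p = 0.784), and -0.22 without knockout 1. Sostdc1, the antagonist that binds LRP4, LRP5 and LRP6, had means of 108 ± 6.14 (knockout) and 97.7 ± 12.03 FPKM (control; log2 fold change 0.16, limma adjusted p = 0.891), and the fold change was 0.050 without control 3. Agrn, which encodes agrin, the LRP4 ligand, was at 65.2 ± 6.86 and 70.7 ± 6.24 FPKM (-0.12, limma adjusted p = 0.896).

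Of 11 tested partners of ROR and RYK signalling 0 passed (limma), 8 lay below 0 and the median was -0.026. Ptk7, a kinase-like co-receptor of the polarity pathway, had means of 73.5 ± 6.14 (knockout) and 74.4 ± 2.29 FPKM (control). Vangl2, a core polarity protein, was at 44.2 ± 2.78 and 45.7 ± 4.48 FPKM, and Celsr1, an adhesion receptor of the same system, at 32.0 ± 4.33 and 36.1 ± 2.71 FPKM. Wnt5a, the main ROR ligand, named after its values were seen, was the 1 gene of 11 with an unadjusted p under 0.05, beside 5.70% of all tested genes. It was at 30.32, 28.04 and 32.36 FPKM in the knockouts and at 36.37, 34.81 and 32.68 FPKM in the controls, and the log2 difference was -0.19 ± 0.076 (SE, limma adjusted p = 0.869). Its groups did not overlap, which held for 1 of the 11 genes, beside 10.1% of all tested genes. Knockout 3 and control 3 were close, at 32.36 and 32.68 FPKM.

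Other genes of the LDL receptor family served as a structural comparison, without regard to any part they have in Wnt signalling. Of 7 tested genes 0 passed (limma), 0 had an unadjusted p under 0.05, 6 lay below 0 and the median was -0.058, beside -0.079 for the co-receptor and Kremen genes. Lrp10 was at 52.6 ± 2.87 and 54.8 ± 0.552 FPKM, Vldlr, a lipoprotein and reelin receptor, at 40.2 ± 2.07 and 41.3 ± 0.910 FPKM, and Lrp1, an endocytic receptor, at 26.5 ± 4.77 and 30.4 ± 1.82 FPKM in knockout and control. Lrp1 was lowest in knockout 1, at 21.37 FPKM, against 27.21 and 30.82 FPKM in knockouts 2 and 3. Its log2 fold change of -0.21 (limma adjusted p = 0.891) was -0.066 without knockout 1. The groups of 1 of the 7 genes did not overlap, beside 10.1% of all tested genes. It was Lrp3, named after its values were seen, at 2.73, 3.16 and 3.36 FPKM in the knockouts and 3.65, 3.56 and 3.37 FPKM in the controls.

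**Figure D5:**
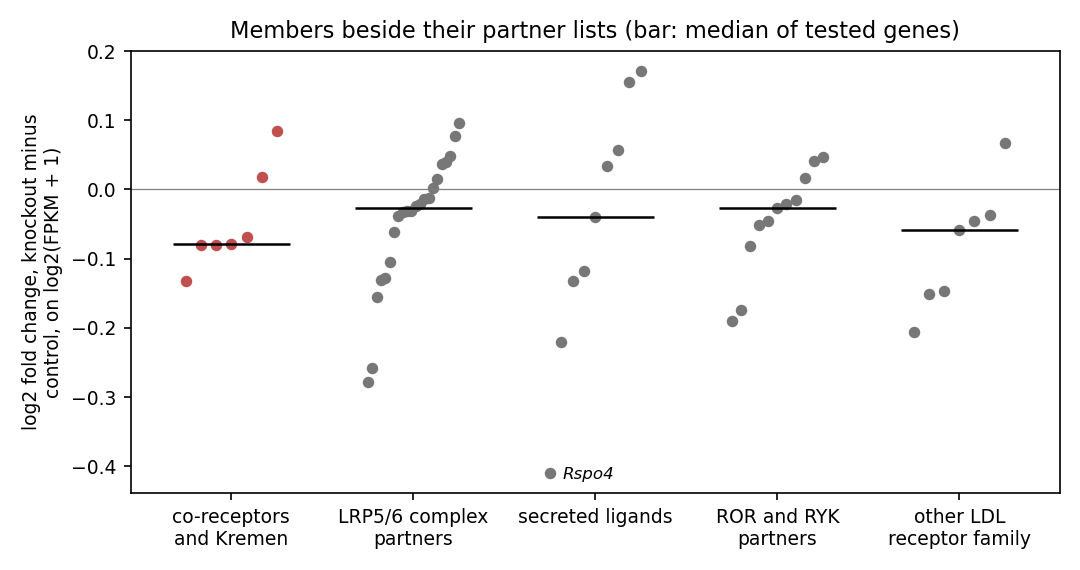
Log2 fold change (knockout minus control, on log2(FPKM + 1)) of each tested gene of the co-receptor and Kremen group (red) and of 4 partner lists (grey), with a bar at the list median. Medians lie between -0.079 and -0.026, and Rspo4 at -0.41 is the lowest point.

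The genes whose pattern over the 6 libraries was most like that of Lrp4 were Eif4ebp2, Ddi2, Nhs, Myo18a and Nfatc1, with Pearson r between 0.982 and 0.991 on log2(FPKM + 1). The r describes 6 libraries that share depth and length effects, and 206 of 11933 genes exceeded 0.9. Each of the 5 was lowest in knockout 1 and next lowest in control 2, as Lrp4 was, and Eif4ebp2 stood at 12.89 and 15.34 FPKM there and between 17.06 and 19.62 FPKM in the other libraries.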

How the data were processed

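Per the file headers, the deposited table holds FPKM per gene and library, the longest transcript length, a log2 ratio (case over control) by the authors, and their p-value and q-value. Reads were aligned to mm10 with Bowtie2, per the submitters' processing notes. Not given in the sources used here are versions, annotation, FPKM tool and the authors' test.

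Groups came from the genotype labels. limma 3.58.1 (R 4.3.3) with a variance trend was fitted to log2(FPKM + 1) without covariates, on genes reaching 1 FPKM in 3 or more libraries, with Benjamini-Hochberg adjustment over all 11934 genes at 0.05, and was tested on simulated data. Exact permutation tests were used for Kremen2 and the ratios. Reads were rebuilt from FPKM, length less 30 bases and the estimated depth, and 84.5% to 91.2% of the low values then came out whole to within 0.15 reads. The depth and the 30 bases were chosen to make this share highest, so the share is not a separate check of them. The depth is an estimate and no counting interval was computed. Symbols shown as dates were restored from gene numbers.

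All members are named. From each partner list the called genes or otherwise the 3 most abundant are named, and genes most like the most variable member. Members and lists were chosen with earlier results of these data known. Positions, exons and transcripts come from GENCODE M21 and promoters from RefSeq. Python 3.11.15, pandas 2.3.3 and scipy 1.17.1 were used. Alternatives were pseudocount 0.1, other filters, scaling, variance and block terms, rebuilt reads and omission of each library. Removal of the length trend, as the running median of 500 genes, was chosen after seeing the data.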

Additional observations from a re-analysis of the deposited data

How the results depend on the processing

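No member passed the threshold in any fit. The number of called genes, 1 in the main fit, was 0 without a filter on low values (924 at an unadjusted p under 0.05), 3 with a filter at 5 FPKM, which drops Ror1, 2 with limma-voom on rebuilt reads and between 1 and 6 when single libraries were left out. With a replicate block it was 8, none a member. Same-numbered libraries did not all deviate together (correlations of -0.062, 0.17 and 0.39), so the numbers are not taken as pairs, and not every library correlated best with its own number. When each library was left out in turn, the log2 fold change ran from -0.16 to 0.040 for Lrp4, -0.14 to 0.016 for Kremen1, -0.068 to 0.082 for Ryk, -0.19 to -0.055 for Lrp5, -0.11 to -0.039 for Lrp6, -0.16 to -0.021 for Ror2 and 0.015 to 0.15 for Ror1. The Kremen2 difference ran from -0.21 to -0.053 FPKM, and those of the log2 ratios from -0.011 to 0.12 for Lrp6 to Lrp5, -0.29 to -0.10 for Ror2 to Ror1 and 0.018 to 0.31 for Kremen1 to Kremen2. Fzd6 ran from -0.0080 to 0.070, Ptk7 from -0.076 to 0.044, Vangl2 from -0.13 to 0.0075, Sostdc1 from 0.050 to 0.21, Agrn from -0.18 to -0.035, Celsr1 from -0.25 to -0.063 and Lrp1 from -0.32 to -0.066. With the length trend removed Ptk7 was at 0.014, Vangl2 at 0.0085 and Vldlr at 0.040. In that fit Agrn (-0.051), Celsr1 (-0.097), Lrp1 (-0.13), Sostdc1 (0.11) and Gsk3a (0.046) were smaller in size than in the main fit. Rspo4 (-0.43), Lrp10 (-0.062), Csnk1g2 (-0.035) and Fzd6 (0.067) were larger in size. The cause was not tested. The other 133 alternative values for members, ratios and the count of calls did not change by the rule used for each. For tested members the rule was the direction and the side of the threshold, and for the count of calls a count within 1.5 times. For Kremen2 and the ratios it was the direction only. Other filters, the variance term and the replicate block leave a fold change or difference as it was, so its direction could not change there. Kremen2, at 21 to 33 rebuilt reads, is limited by depth.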
